A study of Sander lucioperca with 12 samples.

Results

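The transcription level of each gene in the whole brain was followed along body length in wild young-of-the-year pikeperch (Sander lucioperca). All 12 fish of the series were used, in 4 groups of 3 fish. The groups were ordered by the midpoint of their standard length, the body length without the tail. Planktivores of 2023 were the shortest (52 to 53 mm, midpoint 52.5 mm), followed by planktivores of 2022 (60 to 68 mm, midpoint 64 mm), piscivores of 2023 (85 to 100 mm, midpoint 92.5 mm) and piscivores of 2022 (110 to 130 mm, midpoint 120 mm). The group ranges are those the study gives, and every fish carried its group's midpoint because individual lengths were not used here. The question was which genes rose or fell in order over all 4 groups along these 67.5 mm, as opposed to a single step between phenotypes or between years. The group means of 1951 of 21789 genes tested stood in that order or its reverse.

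Planktivores eat zooplankton and were taken by trawl in open water. Piscivores already eat fish and were taken by seine along the shore. Habitat and gear therefore differed between the phenotypes as well. Fish of both phenotypes came from 1 reservoir in 2 summers, their sex could not be told at this age, and no fish was treated. Each library is poly(A) RNA of the whole brain of 1 fish. The fish sequenced were those with the best RNA yield and quality.

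The order of length holds a phenotype difference and a year difference at once. Piscivores were longer than planktivores, and within each phenotype the fish of 2022 were longer than those of 2023. The 3 steps along the order measured 11.5 mm within planktivores, 28.5 mm between phenotypes and 27.5 mm within piscivores. The first and the last step were also comparisons of 2022 with 2023, so that length within a phenotype cannot be told apart from the year. A gene higher in piscivores and, by a smaller difference, higher in 2022 takes the same order as a gene that followed length.

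A fish brain goes on growing with the body, and new neurons are added in the cerebellum and other zones after the larval stage. A growing brain also enlarges its covering membranes, its vessels and their extracellular matrix, which is built of collagens, laminins and fibronectin, secreted by meningeal fibroblasts and vascular cells through the endoplasmic reticulum.

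Total counts were 15327406 to 33858794 per library, and 3 counts corresponded to 0.0803 to 0.197 CPM (counts per 1000000 after TMM scaling). Ribosomal RNA genes took 12.0% to 21.0% of counts in 2022 and 0.137% to 0.36% in 2023. Each of the 3 steps along the order joined libraries of different years, and the part of this difference in the steps was not tested. Every myelin and every synapse marker in the table was counted in each of the 4 groups. The summed level of hox genes, markers of hindbrain and spinal cord, was 86.1 to 253 CPM in 5 fish (planktivore 5 of 2023, planktivores 3 and 4 of 2022, piscivore 2 of 2023 and piscivore 2 of 2022) and 1.77 to 10.9 CPM in the other 7, so that the libraries of every group differed in these genes.

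The trend over all 12 fish was called for 11 genes (0.0505% of those tested), with 10 rising (0.0459%) and 1 falling (0.00459%). A call needed a Benjamini-Hochberg adjusted p below 0.05 over all genes in the quasi-likelihood test of edgeR and a fitted change above 1 on the log2 scale over the 67.5 mm. At an unadjusted p below 0.05, 1322 genes had a positive and 1322 a negative slope. In bulk tissue, fewer cells of a type and less RNA per cell cannot be told apart. All 11 called genes had their 4 group means in the order of length. Over the transcriptome neither that order nor its reverse stood out, and together they held 8.95% of genes. Were all orders equally frequent, each would hold 1 part in 24. Of the 24 orders that 4 group means can take, the rising order held 806 genes (3.7%) and ranked 13th in frequency, and the falling order held 1145 genes (5.25%) and ranked 7th. Single orders held from 1.56% to 8.33%. Orders with both groups of 1 year below both groups of the other held 50% of genes, and orders with both groups of 1 phenotype below both of the other held 31.7%. Both kinds take up equally many of the 24 orders.

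**Figure D1:**
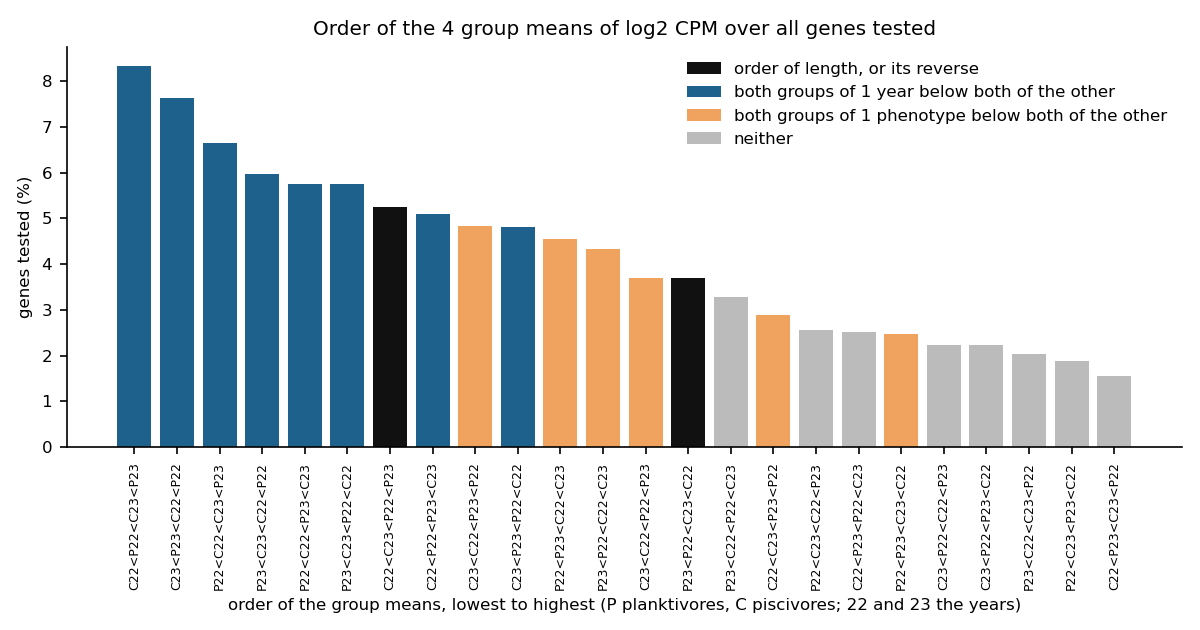
Percentage of the 21789 genes tested in each of the 24 orders of the 4 group means of log2 CPM, listed from the lowest group to the highest. The 2 black bars are the order of length and its reverse, at 3.7% and 5.25%, and they are also orders in which the phenotypes stand apart. The most frequent order held 8.33% of genes.

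As single predictors, length explained the most variance of log2 CPM in 19.5% of all genes, phenotype in 26.9% and year in 53.5%. Among the 11 called genes length was the best single predictor in 8, phenotype in 3 and year in 0. These shares describe the calls, which were made on length, and carry no test.

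For each ordered gene the total difference between the longest and the shortest group was divided over the 3 steps. A change proportional to length would place 17.0%, 42.2% and 40.7% of it in the successive steps, hence 57.8% within phenotypes. A gene was named graded where at least 33.3% of its difference lay within phenotypes, and a step between phenotypes otherwise. Of the 1951 ordered genes 1804 were graded and 147 were steps. Of the 11 called genes 8 were graded and 3 were steps.

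The clearest order of single fish among the called genes was in LOC116042861, annotated as a gene for a zinc finger protein like GLIS2, a family of transcription factors (chromosome 4, 16360898 to 16394854, plus strand). Planktivores of 2023 had 3.07, 3.71 and 3.01 CPM and planktivores of 2022 had 6.45, 6.66 and 4.86 CPM. Piscivores of 2023 had 7.74, 8.71 and 7.12 CPM and piscivores of 2022 had 10.025, 10.8 and 19.0 CPM. No fish of a shorter group reached any fish of a longer group, so that all 12 fish stood in the order of their groups. The fitted change was 1.77 ± 0.25 (log2, SE, n = 12, edgeR adjusted p = 0.0412). The steps were 0.87 ± 0.24, 0.39 ± 0.24 and 0.76 ± 0.24 on the log2 scale (SE), and 79.6% of the difference lay within phenotypes. A change proportional to length would place 57.8% there. The largest step was thus the first, over the shortest distance of 11.5 mm. The test for departure from a straight line gave an edgeR adjusted p of 0.287.

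All 12 fish stood in group order in 1 rising gene (0.00459% of genes) and 1 falling gene (0.00459%). The falling gene, LOC116054197, was not called (log2 change -0.28 ± 0.10 SE, edgeR adjusted p = 0.262). Its levels were 16.4, 17.4 and 15.7 CPM in planktivores of 2023, 15.3, 15.6 and 14.8 CPM in planktivores of 2022, 14.7, 14.2 and 14.8 CPM in piscivores of 2023, and 13.7, 13.5 and 12.7 CPM in piscivores of 2022. Neighbouring groups were separated by small distances, such as 15.7 against 15.6 CPM between the nearest planktivores of the 2 years. The SD within a group was 0.28 to 0.87 CPM.

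The called genes fn1b, lamc3 and pcdh12 code for matrix or adhesion proteins. They were put together after the calls were seen, and the share of such genes among all genes tested was not counted. The fibronectin gene fn1b (chromosome 3, 29715725 to 29740445, minus strand), whose product links cells to the extracellular matrix, had 19.4, 18.8 and 16.2 CPM in planktivores of 2023. It had 23.3, 37.7 and 35.1 CPM in planktivores of 2022, 46.6, 32.5 and 49.0 CPM in piscivores of 2023, and 48.8, 74.1 and 71.2 CPM in piscivores of 2022. The planktivores of the 2 years did not overlap, whereas planktivores of 2022 overlapped with piscivores of 2023. The fitted change was 1.61 ± 0.23 (log2, SE, edgeR adjusted p = 0.0412), with 76.7% of the difference within phenotypes.

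The laminin chain gene lamc3 (chromosome 14, 1869912 to 1966878, plus strand), which codes for a part of basement membranes, had 12.6, 9.30 and 6.51 CPM in planktivores of 2023 and 8.57, 13.3 and 15 CPM in planktivores of 2022. It had 18.8, 18.9 and 19.8 CPM in piscivores of 2023 and 21.0, 30.4 and 29.1 CPM in piscivores of 2022. The planktivores of the 2 years overlapped, and the piscivores of the 2 years did not. Its change was 1.48 ± 0.22 (log2, SE, edgeR adjusted p = 0.0449), with 56.0% within phenotypes, close to the share of a change proportional to length.

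The protocadherin gene pcdh12 (chromosome 1, 45881100 to 45903998, plus strand), known from vascular endothelium in mammals, had 2.65, 2.64 and 1.68 CPM in planktivores of 2023 and 2.87, 3.65 and 2.17 CPM in planktivores of 2022. It had 3.05, 3.81 and 3.22 CPM in piscivores of 2023 and 6.29, 7.06 and 7.30 CPM in piscivores of 2022. The last group stood apart from the other 3, which overlapped with their neighbours. The change was 1.46 ± 0.23 (log2, SE, edgeR adjusted p = 0.0449), with 85.1% within phenotypes and a last step of 1.04 ± 0.24 (log2, SE).

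The gene wls (chromosome 9, 34911798 to 34942006, plus strand) codes for the carrier that brings Wnt proteins to the cell surface, and it had the smallest p of all genes. Its levels were 27.1, 22.6 and 27.8 CPM in planktivores of 2023, 22.5, 30.1 and 27.5 CPM in planktivores of 2022, 53.5, 37.3 and 42.2 CPM in piscivores of 2023, and 48.0, 68.8 and 63.1 CPM in piscivores of 2022. Every piscivore was above every planktivore, and within each phenotype the years overlapped. The change was 1.3 ± 0.16 (log2, SE, edgeR adjusted p = 0.0344). Only 39.5% of it lay within phenotypes, and the step within planktivores was 0.05 ± 0.18 (log2, SE), so that the gene stood near the limit between graded and step.

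The protein coding gene LOC116040003 (chromosome 14, 6180763 to 6227024, minus strand) had a similar profile at lower levels. Planktivores had 5.88, 5.34 and 5.35 CPM in 2023 and 6.5, 5.68 and 5.43 CPM in 2022, and piscivores had 8.17, 8.96 and 8.18 CPM in 2023 and 9.11, 10.8 and 12.6 CPM in 2022. Planktivores of the 2 years overlapped, and the other neighbouring groups did not. The change was 1.02 ± 0.14 (log2, SE, edgeR adjusted p = 0.0412), just above the limit of 1, with 45.2% within phenotypes.

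The gene stmnd1 (chromosome 16, 18505406 to 18509203, plus strand) codes for a protein with a stathmin domain, a domain known for binding tubulin. It was one of the weakly transcribed members, with 2.03, 1.82 and 1.92 CPM in planktivores of 2023 and 2.45, 2.36 and 1.89 CPM in planktivores of 2022. Piscivores had 2.95, 3.24 and 2.56 CPM in 2023 and 4.0, 4.31 and 5.47 CPM in 2022. Only the 2 planktivore groups overlapped. The change was 1.22 ± 0.19 (log2, SE, edgeR adjusted p = 0.0449), with 69.1% within phenotypes.

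A single gene was called as falling, zgc:66479 (chromosome 12, 30112587 to 30119752, plus strand). It had 16.6, 13 and 9.61 CPM in planktivores of 2023, 13, 7.53 and 7.32 CPM in planktivores of 2022, 7.39, 6.23 and 8.67 CPM in piscivores of 2023, and 3.41, 2.75 and 3.57 CPM in piscivores of 2022. The longest fish stood apart below all others, and the 3 shorter groups overlapped with their neighbours. It changed by -1.82 ± 0.28 (log2, SE, edgeR adjusted p = 0.0449), with 85.8% of the difference within phenotypes. Its last step was -1.2 ± 0.27 (log2, SE).

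**Figure D2:**
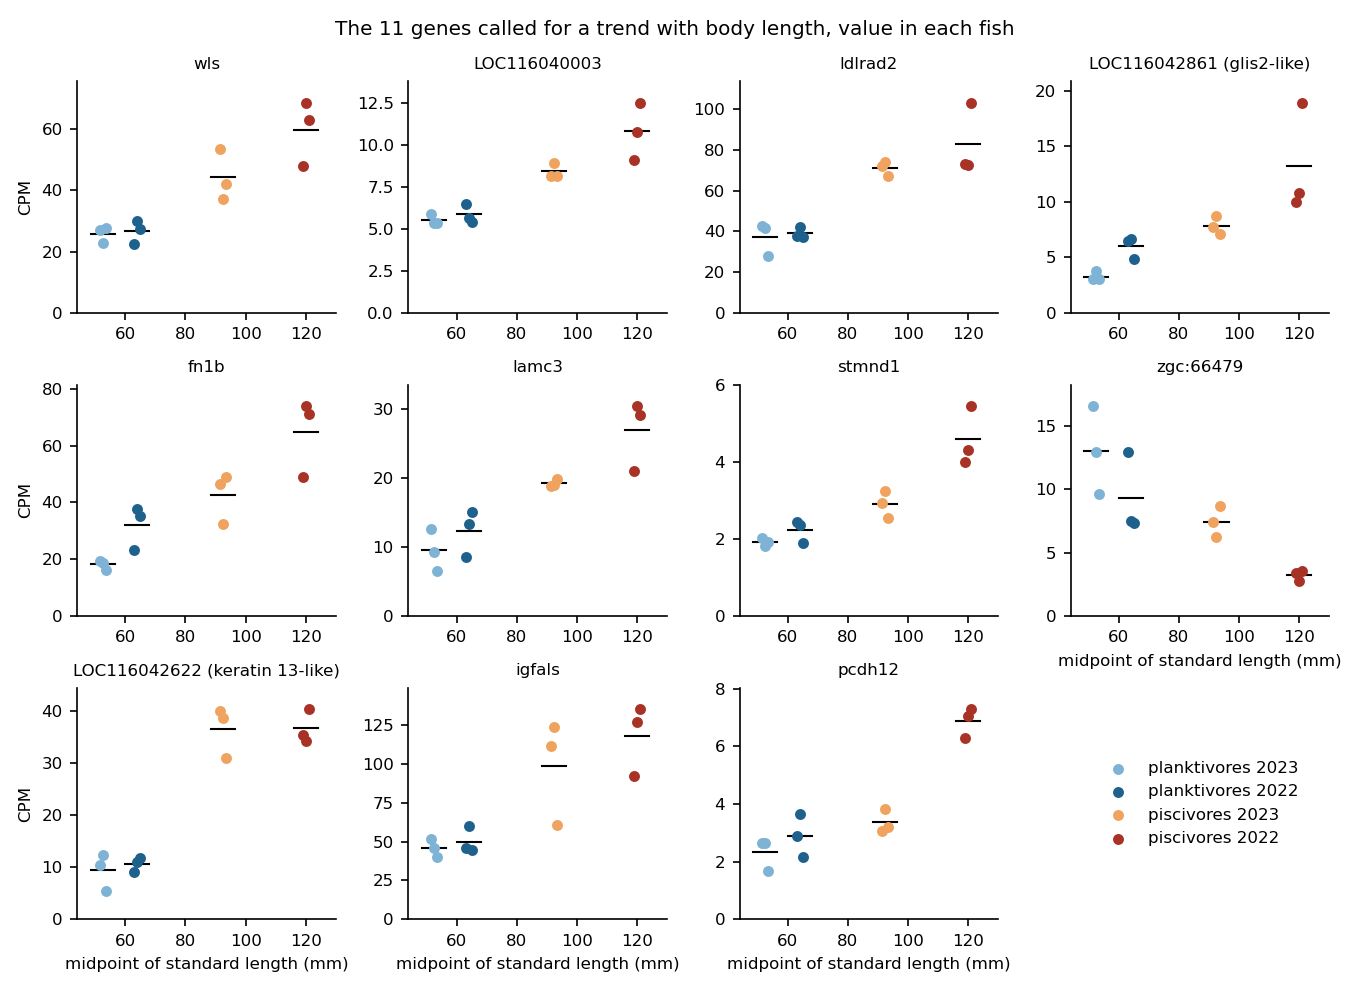
Level of each of the 11 called genes in CPM (vertical axis, from 0) against the midpoint of the group's standard length in mm (horizontal axis). Each point is 1 fish, shifted sideways by up to 1 mm for visibility, and each bar is the mean of 3 fish. LOC116042861 is the gene in which all 12 fish stood in group order, and LOC116042622 shows a plateau within each phenotype.

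The other 3 calls were named steps between phenotypes by their share of the difference within phenotypes. That rule is not a test of shape, and in these 3 genes the departure from a straight line did not pass the adjusted p (edgeR). The name graded also rests on the share alone. The graded genes pcdh12 and zgc:66479 held most of their change in the step within piscivores. The type I keratin gene LOC116042622, annotated as like keratin 13 (chromosome 4, 13094627 to 13097040, plus strand), had 10.4, 12.4 and 5.35 CPM in planktivores of 2023 and 9.08, 11 and 11.7 CPM in planktivores of 2022. Piscivores had 40.0, 38.7 and 31.0 CPM in 2023 and 35.4, 34.2 and 40.4 CPM in 2022. The phenotypes were far apart and the years within them overlapped. The fitted change of 2.29 ± 0.36 (log2, SE, edgeR adjusted p = 0.0449) was the largest of the 11 genes. Only 12.8% of the difference lay within phenotypes, the step within piscivores was 0.00 ± 0.24 (log2, SE), and the test for departure from a straight line gave an unadjusted p of 0.0037 (edgeR adjusted p = 0.0587).

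The gene igfals (chromosome 21, 5931916 to 5934805, minus strand) codes for the acid-labile subunit, which in mammals holds insulin-like growth factors in circulation. Planktivores had 51.6, 46.0 and 39.8 CPM in 2023 and 45.5, 59.8 and 44.3 CPM in 2022, and piscivores had 112, 124 and 60.5 CPM in 2023 and 92.0, 127 and 135 CPM in 2022. Piscivore 4 of 2023 was only slightly above the highest planktivore. The change was 1.5 ± 0.24 (log2, SE, edgeR adjusted p = 0.0449), with 31.3% within phenotypes, just under the limit for a graded gene. No departure from a straight line was found (edgeR adjusted p = 0.511).

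The gene ldlrad2, outside the rule for named genes and chosen after its values were seen (chromosome 6, 16629388 to 16647160, minus strand) had 42.5, 41.4 and 27.9 CPM in planktivores of 2023 and 37.7, 41.9 and 37.3 CPM in planktivores of 2022. Piscivores had 72.3, 74.1 and 67.0 CPM in 2023 and 73.1, 72.4 and 103 CPM in 2022. The phenotypes did not overlap. The change was 1.28 ± 0.18 (log2, SE, edgeR adjusted p = 0.0412), with 25.1% within phenotypes. Here too no departure from a straight line was found (edgeR adjusted p = 0.375).

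Over the 11 calls, all 6 piscivores lay beyond all 6 planktivores in 8 genes, the exceptions being fn1b, zgc:66479 and pcdh12. The planktivores of the 2 years were apart in 2 genes, fn1b and LOC116042861. The piscivores of the 2 years were apart in 6. These counts describe genes called on length, which takes in the same contrasts, and they carry no test. The share of all genes with such separations was not counted.

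**Figure D3:**
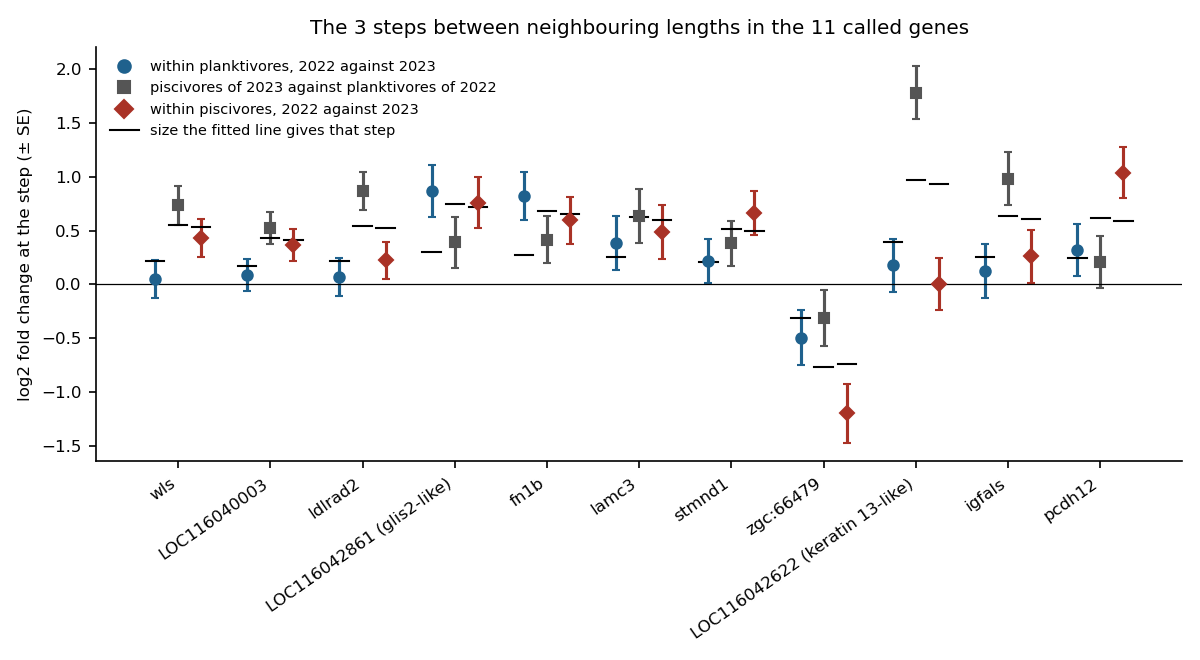
The 3 steps between neighbouring groups in each of the 11 called genes, as log2 fold change (vertical axis) with its SE from the fit of the 4 groups. The short black lines mark the size that the fitted line with length gives each step. LOC116042622 holds nearly all of its change in the step between phenotypes, whereas pcdh12 and zgc:66479 hold most of theirs in the step within piscivores.

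These calls rested on few fish. Without planktivore 4, 5 or 6 of 2023, planktivore 2 of 2022, or piscivore 2 or 3 of 2022, no gene was called, and the adjusted p of the 11 genes then lay between 0.05 and 0.312 (edgeR). Without planktivore 3 of 2022 there were 3 calls and without piscivore 2 of 2023 there were 6. Without piscivore 1 of 2022 there were 95. In all 12 fits with 1 library left out, each of the 11 genes kept its direction. DESeq2 called 232 genes for the same trend, 102 of them in order, and limma-trend called 10.

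A pair of genes passed the adjusted p but not the limit on the change, and they are named here after their values were seen. Both code for the splicing factor SRSF5, an RNA-binding protein, and both fell. The gene srsf5a had 106, 107 and 123 CPM in planktivores of 2023, 90.2, 80.4 and 98.8 CPM in planktivores of 2022, 80.7, 73.0 and 77.7 CPM in piscivores of 2023, and 65.9, 66.8 and 64.4 CPM in piscivores of 2022. Its neighbouring groups overlapped nowhere but between planktivores of 2022 and piscivores of 2023 (log2 change -0.71 ± 0.11 SE, edgeR adjusted p = 0.0449, 71.8% within phenotypes). The gene srsf5b had 163, 173 and 177 CPM, 170, 152 and 177 CPM, 129, 125 and 119 CPM, and 114, 117 and 106 CPM in the same groups. It lay below in every piscivore and was a step by its share of 30.3% within phenotypes (log2 change -0.66 ± 0.10 SE, edgeR adjusted p = 0.0449). The 2 genes are copies of 1 ancestral gene, and only uniquely mapped reads were counted.

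Within phenotypes, with the phenotype as a further term in the fit, the slope with length was called for 733 genes (3.36%), 508 rising and 225 falling. Within each phenotype this slope compares 2022 with 2023. The piscivores weigh more in it, because their 2 groups lay 27.5 mm apart, against 11.5 mm in planktivores. Of the 733 genes 6 had their group means in order over all 4 groups, against 8.95% of all genes. A gene chosen for a large year contrast takes that order only where its phenotype difference is larger still. The low count was therefore favoured by the choice of genes. Of these 6, pcdh12 and zgc:66479 were among the 11 trend calls. Slopes within phenotypes are scaled to the 67.5 mm, more than the length span of either phenotype, and so exceed the differences seen within one. The slope was 2.45 ± 0.54 in pcdh12 (log2, SE, edgeR adjusted p = 0.0362) and -2.94 ± 0.59 in zgc:66479 (log2, SE, edgeR adjusted p = 0.0318). The number of genes called within phenotypes was 672 without planktivore 4 of 2023, 775 without piscivore 1 of 2022 and 1838 without piscivore 4 of 2023. Without any other library it was between 0 (piscivore 3 of 2022) and 388 (planktivore 6 of 2023).

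The other 4 of these 6 ordered genes are named after their values were seen. The gene serpind1, for heparin cofactor II, a plasma protease inhibitor, was weakly transcribed, from 0.456, 0.688 and 0.297 CPM in planktivores of 2023 to 2.097, 2.13 and 3.15 CPM in piscivores of 2022 (slope within phenotypes 3.57 ± 0.84, log2, SE, edgeR adjusted p = 0.0413). The gene dct, for the melanin enzyme dopachrome tautomerase, went from 4.10, 3.74 and 3.47 CPM to 1.18, 1.40 and 1.58 CPM over the same groups (slope -2.14 ± 0.53, log2, SE, edgeR adjusted p = 0.048). The remaining genes were LOC116037356 and the long noncoding RNA gene LOC116037487, with slopes of 1.35 ± 0.32 and 1.5 ± 0.37 (log2, SE, edgeR adjusted p = 0.0404 and 0.0451). In all 4 genes the trend over all 12 fish missed the adjusted threshold, with edgeR adjusted p of 0.0598 to 0.0723.

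A departure from a straight line with length passed the adjusted p (edgeR) in 1155 genes (5.3%), 0 of them among the 11 calls. Calls were made on that line and ordered means lie nearer to a line, so that low counts among both were favoured in advance. A single ordered gene was among the 1155, tgfbi, which codes for a matrix protein induced by TGF-beta and is named after its values were seen. Its levels were 7.62, 10.5 and 7.89 CPM in planktivores of 2023, 14.4, 15.9 and 17.5 CPM in planktivores of 2022, 18.3, 13.6 and 17.1 CPM in piscivores of 2023, and 20.8, 20.4 and 21.2 CPM in piscivores of 2022. The planktivores of the 2 years were apart, and the 2 middle groups overlapped (departure, edgeR adjusted p = 0.0449). The number of genes with a departure was 250 to 620 without planktivore 6 of 2023, any planktivore of 2022, or piscivore 1 or 2 of 2023.

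Taken step by step, 419 genes (1.92%) passed the threshold within planktivores, 484 (2.22%) between planktivores of 2022 and piscivores of 2023, and 69 (0.317%) within piscivores (edgeR). The last 2 steps were of nearly the same length. The middle step exchanged year as well as phenotype. Its number was 49 to 224 without any planktivore of 2022 or piscivore 1 or 2 of 2023, and 733 without piscivore 4 of 2023. The number within planktivores was 126 to 217 without planktivore 4 or 6 of 2023 or planktivore 3 or 4 of 2022. The number within piscivores was 15 to 42 without planktivore 2 of 2022, piscivore 1 or 2 of 2023 or piscivore 2 or 3 of 2022, and 116 and 147 without planktivore 4 and piscivore 4 of 2023. Among the 11 calls the middle step passed the adjusted p in wls (0.73 ± 0.18, adjusted p = 0.0397), ldlrad2 (0.87 ± 0.18, adjusted p = 0.0275), igfals (0.98 ± 0.25, adjusted p = 0.0445) and LOC116042622 (1.78 ± 0.25, adjusted p = 0.0073), all as log2 change with SE by edgeR. The first and last steps of the 11 genes did not pass it.

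Of the 32 gene lists examined, collagens and meningeal fibroblast genes were most often in rising order. These lists share collagen genes, among them col1a2, so that their shares are not independent. In each list without a call the members of smallest p are given, and any further members were named after their values were seen. Among 41 collagen genes tested 11 were in rising order (26.8%, against 3.7% of all genes) and 2 in falling order, while 0 were called. An unadjusted p below 0.05 was reached by 18 collagens with a positive and 1 with a negative slope. The median fitted change was 0.65 (log2), against -0.01 over all genes. Over all 41 collagens the median steps were 0.09 within planktivores, 0.78 between phenotypes and -0.11 within piscivores (log2), and the median slope within phenotypes was -0.15. By these medians the difference lay between phenotypes, whereas the ordered collagens had a median share of 45.1% within phenotypes.

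The basement membrane collagen gene col4a1 had the smallest p of the list. Its group means were 33.8, 36.3, 47.2 and 58.2 CPM in the order of length (log2 change 0.80 ± 0.14 SE, edgeR adjusted p = 0.0625), with 51.0% within phenotypes. Its partner chain gene col4a2 had 28.5, 31.0, 39.7 and 44.1 CPM (0.65 ± 0.14, edgeR adjusted p = 0.116). Both means increased at every step.

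The microfibrillar collagen gene col6a1 had 11.7, 11.6, 27.6 and 33.2 CPM (1.72 ± 0.31, log2, SE, edgeR adjusted p = 0.0625) with 25.4% within phenotypes, so that the phenotypes differed far more than the years. Its relative col6a3 was more evenly graded, with 9.65, 12.9, 18.9 and 25.9 CPM (1.37 ± 0.25, edgeR adjusted p = 0.0625) and 66.3% within phenotypes. The fibrillar collagen gene col1a2 had 25.4, 31.0, 108 and 92.2 CPM (2.22 ± 0.66, edgeR adjusted p = 0.205). The order of col6a1 and col1a2 held for the means of log2 CPM and not for those of CPM. The summed collagen level was 315 to 639 CPM and 349 to 529 CPM in planktivores of 2023 and 2022, and 605 to 1859 CPM and 634 to 897 CPM in piscivores of 2023 and 2022. The highest library was piscivore 1 of 2023. The summed level of bone and cartilage genes was also highest in that library, at 1622 CPM against 264 to 613 CPM in the other 11. That list includes collagen genes as well, so that the sums share members. The part of bone and cartilage in the collagen levels was not tested. Without it 13 collagens were in rising order.

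Of 31 meningeal and fibroblast markers 8 were in rising order (25.8%), 0 in falling order, and lamc3 was called, with a median change of 0.82 (log2). Their median steps were -0.05, 0.79 and -0.35 (log2), with a median slope within phenotypes of -0.82, so that the median difference lay between phenotypes. The gene osr1, for a transcription factor of connective tissue, had 18, 21.2, 35.2 and 42.3 CPM (1.28 ± 0.24, log2, SE, edgeR adjusted p = 0.0628). The fibrillin gene fbn1, for a microfibril protein, had 18.2, 25.8, 43.9 and 49.6 CPM (1.44 ± 0.29, edgeR adjusted p = 0.0861). The pericyte and fibroblast receptor gene pdgfrb had 36.3, 41.8, 49.9 and 58.2 CPM (0.66 ± 0.16, edgeR adjusted p = 0.143). In these 3 genes each step was upward.

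The summed level of the meningeal list was 373 to 684 CPM and 485 to 607 CPM in planktivores of 2023 and 2022, and 822 to 1736 CPM and 706 to 1090 CPM in piscivores of 2023 and 2022. Every piscivore was above every planktivore in this sum, and the longest group was not above the piscivores of 2023. Of the list's 31 members 0 were without counts in any group. The part of such membranes in the trends of fn1b, lamc3 and the collagens was not tested. Without planktivore 6 of 2023, 6 collagens were in rising order. The meningeal genes in rising order were 5 without planktivore 6 of 2023, planktivore 4 of 2022, piscivore 2 or 4 of 2023, or piscivore 2 of 2022.

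Of 28 endothelial and pericyte genes 3 were in rising and 2 in falling order, and 0 were called (median 0.30, log2). The gene mfsd2ab, a copy of the gene for the lipid transporter of brain vessels in mammals, had 29.8, 26.4, 23.5 and 16 CPM (-0.84 ± 0.17, log2, SE, edgeR adjusted p = 0.10). The smooth muscle actin gene acta2 was out of order, with 10.9, 13.3, 12.3 and 30.6 CPM, and only the longest group was high (1.34 ± 0.28, edgeR adjusted p = 0.10).

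Of 39 genes of amino acid and unfolded protein stress 4 were in rising order (10.3%), 0 in falling order and 0 were called. At an unadjusted p below 0.05, 11 had a positive and 0 a negative slope. Over all 39 the slope was positive in 30 and negative in 9 (median 0.20, log2), against 10710 and 11079 over all genes. The chaperone gene hspa5 had 106, 100.4, 138 and 165 CPM (0.72 ± 0.15, log2, SE, edgeR adjusted p = 0.0931) and the disulfide isomerase gene pdia6 had 45.5, 43.6, 54.9 and 63.0 CPM (0.53 ± 0.12, edgeR adjusted p = 0.11). In both, planktivores of the 2 years were nearly level and not in order.

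Among 49 heat shock and chaperone genes 4 were in rising order, 0 in falling order and 0 called (median 0.08, log2). The collagen chaperone gene serpinh1a had 8.69, 8.89, 11 and 15.2 CPM (0.82 ± 0.16, log2, SE, edgeR adjusted p = 0.0857). Its copy serpinh1b was out of order, with 4.44, 3.30, 7.56 and 10.7 CPM (1.52 ± 0.37, edgeR adjusted p = 0.142).

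Of 43 genes of the insulin and IGF system 2 were in rising order, igfals and igfbp5b, and 1 in falling order, akt2. Over all 43 the slope was positive in 25 and negative in 18 (median 0.12, log2), with median steps of 0.21, -0.20 and 0.09. The summed level was 1780.3 and 2086.5 CPM in piscivores 1 and 2 of 2023. It was 891 to 1114 CPM in planktivores and 1054 to 1206 CPM in the remaining piscivores. The next 3 genes were named after their values were seen. The ligand gene igf2b had 29.2, 34, 53.2 and 53.6 CPM (0.94 ± 0.20, log2, SE, edgeR adjusted p = 0.102), and igf1 had 7.99, 4.07, 9.33 and 14.7 CPM (1.19 ± 0.40, edgeR adjusted p = 0.261). The binding protein gene igfbp2a had 83.1, 71.0, 108 and 123 CPM (0.71 ± 0.18, edgeR adjusted p = 0.157). The means of these 3 genes were higher in both piscivore groups than in both planktivore groups. By mean log2 CPM none was in order, and igf2b was in order by mean CPM.

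Of 32 early developmental RNA regulators 1 was in falling order, 0 in rising order and 0 were called (median -0.20, log2). The RNA-binding protein gene igf2bp3, known from embryonic and young tissue, had 12.4, 13.2, 8.45 and 7.22 CPM (-0.91 ± 0.16, log2, SE, edgeR adjusted p = 0.0621). Its relative igf2bp1 had 6.56, 8.01, 3.47 and 3.26 CPM (-1.32 ± 0.30, edgeR adjusted p = 0.12). Both had a higher mean in planktivores of 2022 than of 2023 and were thus out of order.

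Falling order was most frequent among cerebellar genes. Of 32 tested 14 were in falling order (43.8%, against 5.25% of all genes), 0 in rising order and 0 were called. The fitted change was negative in 28 of 32, against 11079 of 21789 over all genes. Its median was -0.61 (log2), and 6 had a negative slope at an unadjusted p below 0.05. The median share within phenotypes of the ordered members was 59.8%, against 73.7% over all ordered genes and 57.8% for a change proportional to length. The list holds genes of granule cells, of Purkinje cells and of the patterning of this region.

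The transcription factor gene lhx5, active in the Purkinje cell lineage, had the smallest p. Its means were 29.0, 22, 21.4 and 17.7 CPM (-0.60 ± 0.18, log2, SE, edgeR adjusted p = 0.209). The midbrain and hindbrain boundary gene pax2a had 15.8, 13.4, 7.78 and 6.57 CPM (-1.32 ± 0.41, edgeR adjusted p = 0.219). Most of the difference in lhx5 lay within phenotypes and most of that in pax2a between them.

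The Purkinje cell corepressor gene skor2 had 5.08, 5.04, 2.87 and 0.888 CPM (-2.47 ± 0.81, log2, SE, edgeR adjusted p = 0.249). The granule cell transcription factor genes zic1, zic2a, zic4 and zic5 were all in falling order. As an example, zic1 had 428, 380, 298 and 253 CPM (-0.76 ± 0.51, edgeR adjusted p = 0.585). The granule cell receptor gene gabra6b had 201, 158, 130 and 91.8 CPM (-1.05 ± 0.53, edgeR adjusted p = 0.444).

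The fish within a group were far apart in these genes. The summed level of the list was 3678 to 4198 CPM in planktivores of 2023, 2462 to 4032 CPM in planktivores of 2022, 1727 to 3652 CPM in piscivores of 2023 and 1111 to 3842 CPM in piscivores of 2022. The lower ends decreased along the order while the upper ends stayed nearly level, so that all neighbouring groups overlapped. The low libraries were piscivore 1 of 2023 and piscivores 2 and 3 of 2022. Without planktivore 2 of 2022, without piscivore 1 of 2023 or without piscivore 3 of 2022, 7 of the members were in order, and without piscivore 4 of 2023 there were 9. How much cerebellum each sample held was not tested.

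**Figure D4:**
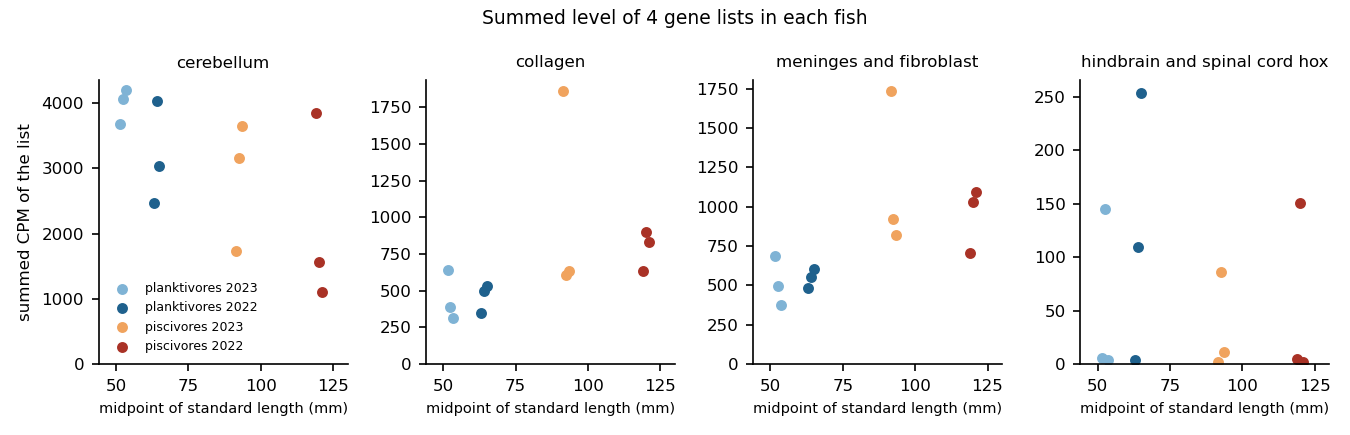
Summed CPM of 4 gene lists (vertical axes, from 0) in each of the 12 fish against the midpoint of standard length in mm, with 1 point a fish. The cerebellar sum spreads from 1111 to 3842 CPM among piscivores of 2022, the meningeal sum separates the phenotypes, the collagen sum is highest in 1 piscivore of 2023, and the hox sum is high in 5 fish spread over the 4 groups.

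Fitted changes were negative in all 22 hox genes that passed the filter, of 39 annotated (median -0.88, log2), and 0 were in order. Over all genes 11079 of 21789 were negative. Their sums spread within every group and were high in few fish, as given above, so that the members are not separate observations of a trend. The gene of smallest p, hoxc8a, had means of 0.33, 1.76, 0.0424 and 0.0187 CPM (edgeR adjusted p = 0.334). It had 36 counts in planktivore 5 of 2023, 59 and 101 in planktivores 3 and 4 of 2022, and 0 to 2 in every other fish. In the successive groups 4, 7, 11 and 11 of all hox genes annotated had no count in any fish.

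Neuropeptide and hypothalamic genes had more negative than positive slopes. Of 45 tested 4 were in falling order, 0 in rising order and 0 were called, with a median of -0.25 (log2). At an unadjusted p below 0.05, 12 slopes were negative and 2 positive. Their median steps were -0.55, 0.54 and -0.62 (log2), downward from 2023 to 2022 in both phenotypes. The summed level was 2786 to 2831 CPM in planktivores and 2936 to 3182 CPM in piscivores of 2023. It was 1803 to 2314 CPM and 2137 to 2249 CPM in those of 2022. In this sum every fish of 2022 was below every fish of 2023. The kisspeptin gene kiss2, a regulator of reproduction, had group means of 1.22, 0.535 and 0.448 CPM and 0 counts in all 3 piscivores of 2022 (edgeR adjusted p = 0.155). The neuromedin gene nmbb had 18.4, 12.6, 11.1 and 6.88 CPM (-1.26 ± 0.35, log2, SE, edgeR adjusted p = 0.183). Both were in order by mean CPM and not by mean log2 CPM, in which the middle groups were nearly level.

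Of 21 erythrocyte genes 1 was in falling order, 0 in rising order and 0 were called, with 7 negative slopes at an unadjusted p below 0.05 (median -0.47, log2). The ordered one was kel, for a surface protease of red cells, which was just outside the threshold. It had 15, 12.8 and 20.4 CPM in planktivores of 2023, 7.58, 6.25 and 2.91 CPM in planktivores of 2022, 3.94, 3.18 and 3.59 CPM in piscivores of 2023, and 1.57, 3.25 and 2.31 CPM in piscivores of 2022. The shortest fish were apart from all others, and the 3 longer groups overlapped with their neighbours (-2.55 ± 0.42, log2, SE, edgeR adjusted p = 0.0514). The summed level of the list was 825 to 1400 CPM in planktivores of 2023 and 538 to 802 CPM over the other 3 groups, and the part of blood in the level of kel was not tested.

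Solute carriers, a large family of membrane transporters, numbered 275 tested by symbol. Of these 20 were in rising order (7.27%) and 7 in falling order (2.55%), and 0 were called (median 0.07, log2). The sodium iodide symporter gene slc5a5 had 24.4, 24.6, 49.6 and 57.0 CPM (1.39 ± 0.25, log2, SE, edgeR adjusted p = 0.0625), with 20.6% within phenotypes. The mitochondrial ADP/ATP carrier gene slc25a4 had 2.73, 2.57, 3.66 and 5.49 CPM and was not in order (adjusted p = 0.0625). In neither gene did the planktivores of the 2 years differ by more than their SE.

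Of 25 genes of motile cilia and choroid plexus 3 were in rising order (12%) and 1 in falling order, with 10 positive slopes at an unadjusted p below 0.05 and 0 called (median 0.47, log2). The cilia gene cfap52 had 7.00, 7.15, 9.73 and 10.7 CPM (0.68 ± 0.19, log2, SE, edgeR adjusted p = 0.169). In ccdc40, another gene of motile cilia, both groups of 2022 were above both groups of 2023, with 8.14, 11.1, 10.3 and 13.5 CPM (0.56 ± 0.18, edgeR adjusted p = 0.229). The number in rising order was 1 without planktivore 6 of 2023 and 5 to 7 without planktivore 4 of 2023, piscivore 1 of 2023 or piscivore 2 of 2022.

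Of 12 keratin and epithelial genes 2 were in rising order, anxa1a and tp63, and 0 in falling order (median 0.50, log2). The called keratin gene LOC116042622 is known by its ID in the files and was not in the list. Of 17 genes of brain matrix and perineuronal nets 1 was in rising order, the proteoglycan gene bcan, with 41.8, 120, 187 and 248 CPM (2.13 ± 0.54, log2, SE, edgeR adjusted p = 0.155). The median of that list was 0.24.

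**Figure D5:**
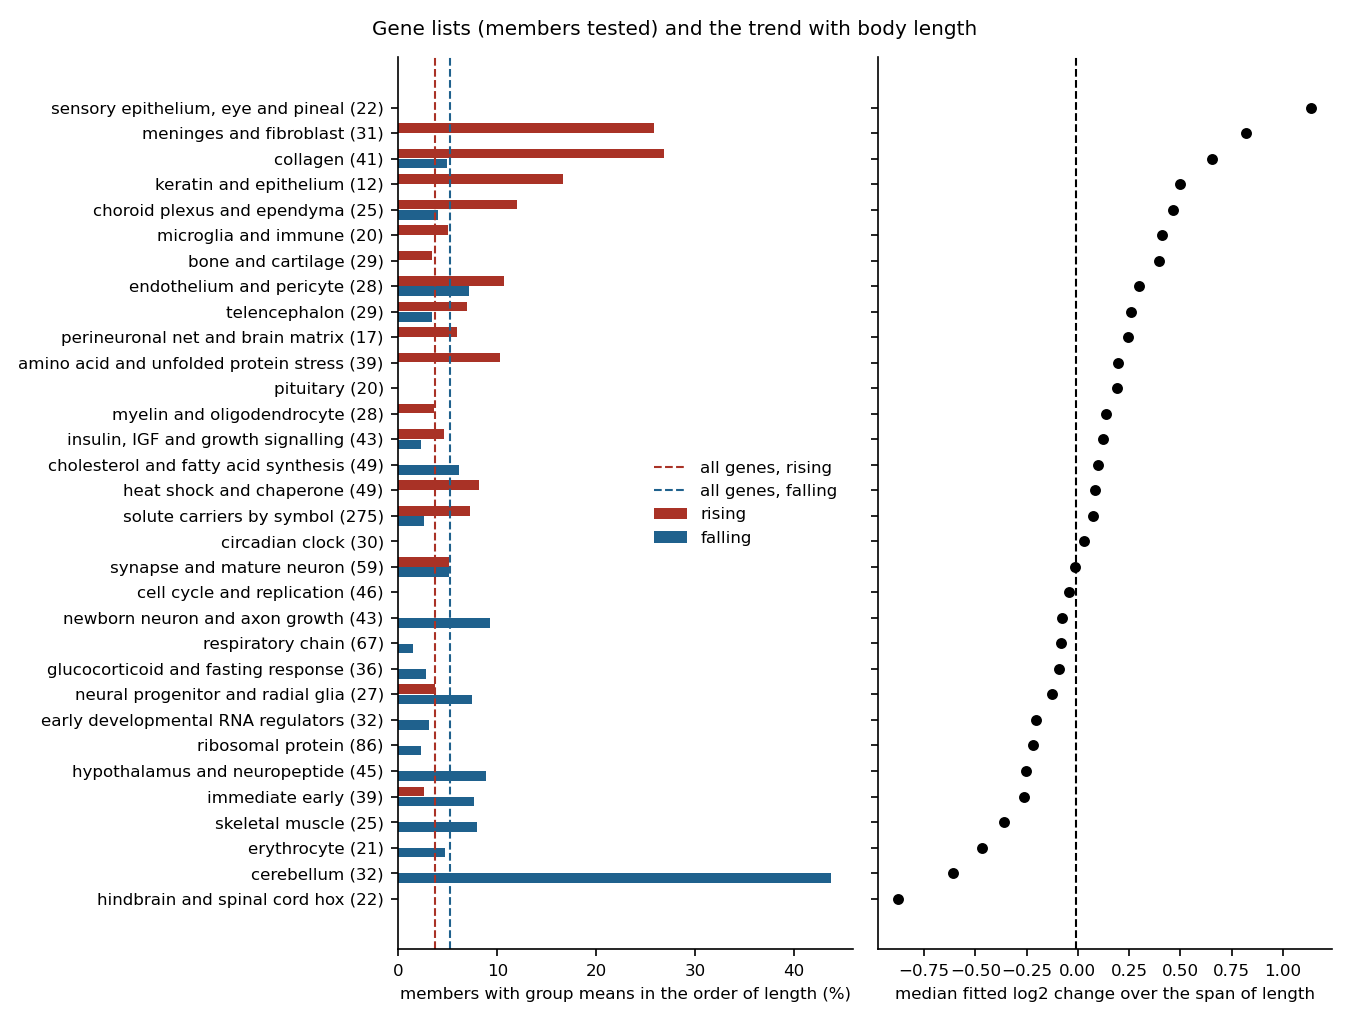
Left, percentage of the tested members of each of the 32 gene lists whose group means were in rising (red) or falling (blue) order of length, with dashed lines at the values of all genes (3.7% and 5.25%). Right, median fitted log2 change of each list over the 67.5 mm, with a dashed line at -0.01 for all genes. Collagens and meningeal genes reach 26.8% and 25.8% in rising order, and cerebellar genes 43.8% in falling order.

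Of 59 synapse genes 3 were in rising and 3 in falling order (median -0.01, log2), of 28 myelin genes 1 and 0 (median 0.14), and of 43 genes of newborn neurons 0 and 4 (median -0.08). Of 27 neural progenitor genes 1 was in rising and 2 in falling order (median -0.13), and 0 of 46 cell cycle genes were in order (median -0.04, with median steps of -0.73, 0.64 and -0.22). Immediate early genes, which respond to stimulation and handling, gave 1 of 39 in rising order, klf6a, and 3 in falling order (median -0.26). Of 30 clock genes 0 were in order (median 0.03).

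Of 20 pituitary genes 0 were in order, with a median of 0.19 (log2) and median steps of -0.88, 1.59 and -1.99. Their summed level was 2751 CPM in piscivore 1 and 2488 CPM in piscivore 2 of 2023, 683 CPM in planktivore 4 of 2023, and 102 to 157 CPM in the other 9 fish. These 3 libraries stood apart, and how much pituitary each sample held was not tested.

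Fitted changes of ribosomal protein genes were negative in 79 of 86 (median -0.22, log2), against 11079 of 21789 over all genes. Their summed level was 33531 to 48470, 28262 to 47408, 32330 to 45264 and 30691 to 32970 CPM in the successive groups. All neighbouring groups thus overlapped, and the members are not separate observations of a trend. Of these 86 genes 0 reached an unadjusted p below 0.05, 0 were called by edgeR and 2 were in falling order. In falling order were also 1 of 67 respiratory chain genes (median -0.08), 3 of 49 cholesterol and fatty acid genes (median 0.10), 1 of 36 genes of glucocorticoid and fasting response (median -0.09) and 2 of 25 muscle genes (median -0.36). In rising order were 1 of 20 immune genes (median 0.41), 1 of 29 bone and cartilage genes (median 0.40) and 2 of 29 telencephalic genes, with 1 more in falling order (median 0.26). Eye and pineal genes had the highest median, 1.14, with 0 of 22 in order and median steps of -0.11, 1.02 and -0.24 (log2). None of these lists held a called gene.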

How the data were processed

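RNA of 12 whole brains was sequenced as 1 poly(A) library per fish. Per the study's methods, the authors used Trimmomatic for trimming and STAR (version 2.5.2 in the submitters' processing notes) for mapping to the build SLUC_FBN_1.2 and counted unique reads within exons with featureCounts. The strand setting was not given in the sources used here. The deposited table holds raw counts per gene for all 12 libraries. The deposited TPM tables and a second count table of 2022 were not used, and gene coordinates and exon lengths were taken from the count files of single libraries. Lines naming no gene (24 of 32987, up to 3.18% of counts) were removed, and genes passing filterByExpr in edgeR 4.0.16 (R 4.3.3) were kept (21789 of 32963). TMM-scaled counts were tested with the robust quasi-likelihood test, with the group's length midpoint as the predictor and Benjamini-Hochberg adjustment over all genes. CPM are these scaled counts, and group means for orders were taken on log2 CPM with a prior count of 2. Phenotype was added as a term for the slope within phenotypes, and a fit of 4 groups gave steps and departure from the line. limma 3.58.1 and DESeq2 1.42.0 were alternatives. The fit was tested on simulated data. Fish of 1 group are separate animals, and intervals of single libraries cover counting error only. Named genes were, per direction, the 12 called graded genes of smallest p, called genes with all 12 fish in order, the 2 largest called steps and, per list, up to 4 called and ordered members or otherwise the 2 of smallest p. The members and lists were chosen with earlier results of these data known. A single named item is not reported here.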

Additional observations from a re-analysis of the deposited data

Results flagged for a closer look

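The gene klf11a, for a zinc finger repressor of the Krüppel-like family, differed between phenotypes in its step from 2023 to 2022, by a test of the difference itself. The step was -1.16 ± 0.20 in planktivores and 1.3 ± 0.20 in piscivores (log2, SE), a difference of 2.46 ± 0.28 (edgeR adjusted p = 0.018). Its group means were 6.17, 2.74, 5.45 and 13.3 CPM in the order of length, so that it was not in order. Over all genes 3 passed the adjusted p of this test.

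Up to 3.18% of the counts of a library stood on rows without a gene name. They entered no comparison.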

How the results depend on the processing

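The 11 trend calls (10 rising, 1 falling, 11 in order, 8 graded) were counted again under each alternative, in the same sequence of 5 numbers where all moved. The Wald test of DESeq2 gave 232, 171, 61, 102 and 89, and the rank of the group in place of millimetres gave 20, 16, 4, 18 and 15. A filter of at least 10 counts in every library gave 20 calls, with 6 falling, 18 in order and 15 graded. Year as a further term gave 37 calls, 26 rising and 11 falling. Within a year length differed only between the phenotypes, so that this slope is also the contrast of piscivores with planktivores. Falling calls were 2 with limma-trend, 2 with the log2 of the midpoint, 3 with the upper end of each length range and 3 with the adjusted p alone. Among alternatives chosen after seeing the data, as were the repeats of steps, departures and gene lists below, phenotype alone as predictor gave 26, 23, 3, 7 and 1, and year alone gave 444, 289, 155, 0 and 0. With 1 library left out, calls ranged from 0 to 95, rising calls from 0 to 71, falling calls from 0 to 24, ordered calls from 0 to 80 and graded calls from 0 to 72. Genes in rising order ranged from 684 to 1080 and in falling order from 931 to 1314.

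The slope within phenotypes was called in 2302 genes by DESeq2 against 733, and in 0 to 1838 with 1 library left out. With 1 library left out, departures from the line ranged from 250 to 1457, and steps from 126 to 512 within planktivores, 49 to 733 between phenotypes and 15 to 147 within piscivores. Members in order ranged from 7 to 15 for cerebellum, 6 to 13 for collagens, 5 to 12 for meninges, 1 to 7 for choroid plexus and 3 to 6 for unfolded protein stress. For all of these the cause was not tested.

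Replicate numbers name different fish in each group and pair nothing. The 8 same-numbered pairs of libraries had correlations of deviations from -0.305 to 0.137, and the 46 other pairs from -0.346 to 0.278. A fit with the replicate number as a block gave 0 trend calls (0 rising, 0 falling, 0 in order, 0 graded) and 4 calls within phenotypes. Numbers 5 and 6 occur only in planktivores of 2023, so that these fish add nothing to the slope in that fit. The loss of calls is thus partly built into it.

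Of the trends of single named genes, 952 values kept their direction and side of the threshold under alternatives other than leaving out a library. A further 41 values lost the call and 36 gained it. The remaining 13 reversed, each of them with year alone as predictor. These were the trend of igf2bp1 (0.18), hsd11b2 (-0.12), tnnc2 (1.03), dusp1 (0.71), sparc (-0.20), phex (-0.079), ckmb (0.40), hoxc8a (2.22), mcm3 (-0.22), tefb (0.38), ccnd2a (-0.11), hoxb9a (2.1) and the trend of ndufaf5 (-0.00998), as log2 difference of 2022 against 2023. With 1 library left out, 744 values kept direction and side of the threshold, 87 lost the call, 9 gained it and 0 reversed.

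With 3 fish a group, 1 length midpoint for each group and 10 residual degrees of freedom, the calls rest on few animals, and length cannot be told apart from phenotype and year together. Genes at a few counts in a library, under about 0.0803 to 0.197 CPM, lie at the floor of these depths.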
